A study of Mus musculus with 12 samples.

Results

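The data were accessible regions at 57 mouse genes that encode the proteins of the muscle sarcomere and of its calcium handling, out of 21631 protein-coding genes. The genes were listed by name, and a gene took every peak whose centre lay in its GRCm38 gene body or within 10 kb of it. The list held 14 genes of the thick filament, 16 of the thin filament, 14 of the Z-disc, M-band, titin and cytoskeleton, and 13 of calcium handling. Peaks came from ATAC-seq, in which the Tn5 transposase cuts and tags DNA that is not covered by nucleosomes. The cells were C2C12, an established line of mouse myoblasts, either control (wild type, WT) or Runx1KO (KO), which lack the transcription factor Runx1. The series labels 12 samples in 4 groups of 3, and the 2 groups used here are the WT and the KO samples of day 0, grown with 20% fetal bovine serum. The day 2 samples in differentiation medium were not analysed here. The labels do not say how the knockout was made, how many clones it comprises or whether the triplicates were separate cultures.

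In the sarcomere, myosin motors of the thick filament pull on actin of the thin filament, which troponin and tropomyosin switch on when calcium binds. Calcium is released from the sarcoplasmic reticulum by ryanodine receptors, which are coupled to voltage-gated channels of the surface membrane at junctions held by junctophilins, and is pumped back by calcium ATPases. Myoblasts switch most of these genes on late, after they leave the cell cycle, under MyoD family factors that bind E-boxes together with MEF2 and, at the actin genes, SRF. Runx1 is a DNA-binding factor of the RUNX family that muscle cells express during growth and after injury or denervation.

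Promoter windows are shown for starts with a peak in WT alone, in both lists and in neither, so that their letters can be compared. Each window is read from the RefSeq promoter table of GRCm38.p6, from 250 bases before to 50 bases after a listed start, 5′ to 3′ on the strand of the gene. Capitals mark a match, on either strand, to the E-box CANNTG, which MyoD family factors bind, or to the RUNX motif TGTGGT. They also mark the TEAD motif GGAATG, the ETS motif CCGGAA and the AP-1 motif TGANTCA. The TATA box was searched for as TATAAA, and the CArG box is the element that SRF binds. The windows of Lmod2 (chr6:24597521-24597820, plus strand) and Cacna2d1 (chr5:15934441-15934740, plus strand) lay under a WT peak and no KO peak. The window of Des (chr1:75360042-75360341, plus strand), that of Ldb3 (chr14:34588632-34588931, minus strand) and the inner window of Tpm3 (chr3:90079271-90079570, plus strand) lay under a peak in both lists. The outer window of Tpm3 (chr3:90072401-90072700, plus strand) and the windows of Acta1 (chr8:123894726-123895025, minus strand) and Myl1 (chr1:66945007-66945306, minus strand) lay under no peak of either list.
Lmod2: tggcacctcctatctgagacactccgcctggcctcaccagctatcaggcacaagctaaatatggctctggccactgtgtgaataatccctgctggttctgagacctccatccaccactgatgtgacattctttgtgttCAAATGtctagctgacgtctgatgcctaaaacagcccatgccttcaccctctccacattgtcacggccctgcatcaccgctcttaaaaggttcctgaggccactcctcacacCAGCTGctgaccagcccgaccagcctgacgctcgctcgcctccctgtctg
Cacna2d1: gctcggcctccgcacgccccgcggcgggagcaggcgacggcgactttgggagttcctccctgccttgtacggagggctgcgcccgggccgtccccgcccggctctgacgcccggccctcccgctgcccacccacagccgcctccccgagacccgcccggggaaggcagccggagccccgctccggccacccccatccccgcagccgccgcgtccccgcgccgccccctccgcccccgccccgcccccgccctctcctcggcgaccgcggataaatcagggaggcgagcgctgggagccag
Des: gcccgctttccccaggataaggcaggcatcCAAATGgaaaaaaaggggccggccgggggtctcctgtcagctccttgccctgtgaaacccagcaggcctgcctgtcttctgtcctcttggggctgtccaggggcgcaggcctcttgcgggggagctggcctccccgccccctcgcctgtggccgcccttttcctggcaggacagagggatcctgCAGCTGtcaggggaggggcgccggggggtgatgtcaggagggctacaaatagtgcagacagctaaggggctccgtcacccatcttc
Ldb3: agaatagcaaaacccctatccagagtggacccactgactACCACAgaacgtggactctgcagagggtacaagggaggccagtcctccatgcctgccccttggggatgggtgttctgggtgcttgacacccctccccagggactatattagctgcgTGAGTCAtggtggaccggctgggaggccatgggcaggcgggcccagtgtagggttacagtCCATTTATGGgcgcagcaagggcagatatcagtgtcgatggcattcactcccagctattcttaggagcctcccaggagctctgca
Tpm3, inner start: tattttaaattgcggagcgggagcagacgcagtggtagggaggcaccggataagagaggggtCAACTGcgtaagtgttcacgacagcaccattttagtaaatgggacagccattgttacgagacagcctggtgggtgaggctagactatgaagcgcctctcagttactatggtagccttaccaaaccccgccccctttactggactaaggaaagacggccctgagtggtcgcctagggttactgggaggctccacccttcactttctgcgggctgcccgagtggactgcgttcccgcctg
Tpm3, outer start: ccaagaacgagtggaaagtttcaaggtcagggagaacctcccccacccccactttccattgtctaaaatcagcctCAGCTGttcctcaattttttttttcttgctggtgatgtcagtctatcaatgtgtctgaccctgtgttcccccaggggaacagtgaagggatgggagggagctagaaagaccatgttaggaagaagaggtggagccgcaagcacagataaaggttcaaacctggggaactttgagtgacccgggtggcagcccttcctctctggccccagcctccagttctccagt
Acta1: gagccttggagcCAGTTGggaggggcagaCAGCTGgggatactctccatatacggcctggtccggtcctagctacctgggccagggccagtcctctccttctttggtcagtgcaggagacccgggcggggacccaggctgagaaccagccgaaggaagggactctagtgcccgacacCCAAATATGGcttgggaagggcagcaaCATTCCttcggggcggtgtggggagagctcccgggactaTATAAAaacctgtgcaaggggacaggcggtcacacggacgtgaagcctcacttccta
Myl1: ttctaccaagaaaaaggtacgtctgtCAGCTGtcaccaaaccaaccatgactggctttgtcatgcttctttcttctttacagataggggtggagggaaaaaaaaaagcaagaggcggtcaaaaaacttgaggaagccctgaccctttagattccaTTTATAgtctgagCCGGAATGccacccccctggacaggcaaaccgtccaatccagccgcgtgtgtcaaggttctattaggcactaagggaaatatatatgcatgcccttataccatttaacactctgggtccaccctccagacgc
The Lmod2 window held 2 E-boxes, and the Cacna2d1 window held none of these motifs and 42 CpG dinucleotides. Des held 2 E-boxes, and Ldb3 held a RUNX, an AP-1 and a CArG match. Among the windows under no peak, Acta1 held 2 E-boxes, a CArG box, a TEAD match and a TATA box. In Myl1 an ETS and a TEAD match overlapped, beside an E-box and a TATA match. A match is a string of letters and no sign of binding, and a missing match says only that these letters are not in the window.

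There were 34118 peaks in the WT list, compared with 27187 in the KO list. The authors' shared and specific lists put 27.3% of all WT peaks in the WT specific class and 9.59% of all KO peaks in the KO specific class. Every value came from the replicate 1 library of a genotype, so no genotype difference has a replicate error or a p-value, and intervals given below are 95% Wilson intervals that cover counting error only. The sequencing depth is unknown, and because the lists differ in length, a peak called in WT alone cannot be told apart from a peak that fell under the calling limit in KO. The fold over background and the −log10 q of a peak, called its strength below, are the authors' values, and WT and KO strengths are printed side by side without a claim of change. The targeted gene Runx1 had 19 peaks in WT (7 WT specific) and 12 in KO (0 KO specific), which does not check the knockout because the deleted part is not given. Of 10 myoblast markers, 9 had a WT peak and 8 a KO peak in the gene or within 10 kb, Myf5 having none in either list. Over all protein-coding genes these shares were 64.6% and 60.8%. Within 1 kb of the gene start, 5 of the 10 had a WT peak and 4 a KO peak, beside 45.0% and 41.0% of all. Of 5 leukocyte markers 1 had a peak in the gene or within 10 kb, Cd14, of 5 neuron markers 2, Rbfox3 and Syt1, and of 4 cardiac markers 2, Nkx2-5 and Nppa, in each list. At the gene start a peak was present at 1 leukocyte marker in WT and 0 in KO. It was present at 1 neuron and 1 cardiac marker in each list.

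Most of the sarcomere and calcium genes had an accessible region in or near them in undifferentiated cells. The share with one at the gene start was lower than among protein-coding genes at large, a difference that was not tested. It was lower still at the 44 collagen genes counted below, at 15.9% in WT and 18.2% in KO. In the WT list 42 of 57 genes (73.7%, interval 61.0 to 83.4) had a peak in reach, against 64.6% of all protein-coding genes. In the KO list 37 of 57 (64.9%, interval 51.9 to 76.0) had a peak, against 60.8%. Each of these shares over all genes lies inside the interval beside it. The 57 genes are longer, with a median of 23.6 kb beside 17.3 kb for all, and length was not matched. A WT peak lay within 1 kb of the start of 18 genes (31.6%, interval 21.0 to 44.5), against 45.0% of all protein-coding genes. A KO peak lay there for 16 genes (28.1%, interval 18.1 to 40.8), against 41.0%. For 15 of the 57 genes the tables give no strand, and a peak at either end was counted as a start peak. For the others the start of the gene body counted beside the starts of the RefSeq promoter table. With only the 42 genes of known strand the start share was 31.0% in WT, against 46.4% of all such genes, and 26.2% in KO, against 42.4%. With only the promoter table starts of these genes it was 26.2% in WT, against 45.4%, and 21.4% in KO, against 41.5%. Peaks were not sparse around the genes, at 21.7 WT peaks and 17.3 KO peaks per Mb of gene and flank, beside 19.7 and 15.8 for all protein-coding genes.

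**Figure D1:**
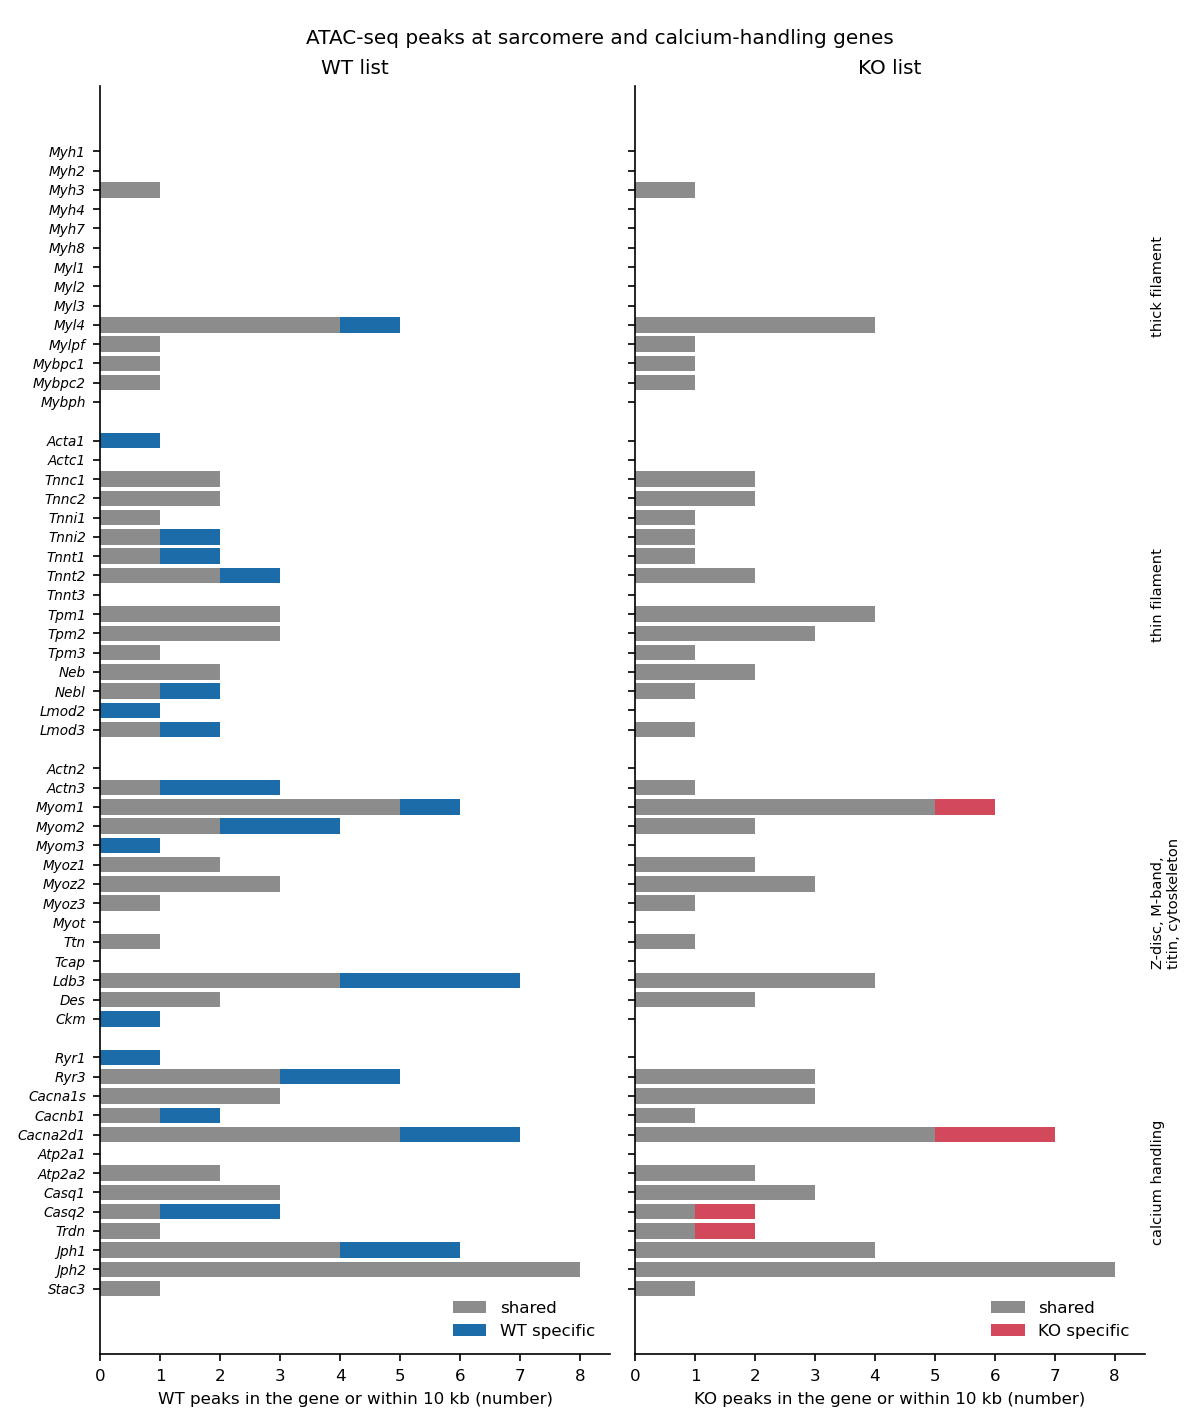
Number of WT peaks (left) and KO peaks (right) in each of the 57 genes or within 10 kb, by role group, with shared peaks in grey, WT specific peaks in blue and KO specific peaks in red. The myosin genes at the top have few bars, Jph2 has 8 shared peaks in each list, and red bars appear at 4 genes.

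Every gene with a KO peak in reach also had a WT peak. Of the 42 genes with a WT peak, 37 had a KO peak as well. Of all protein-coding genes, 13971 had a WT peak, 13157 a KO peak and 14224 a peak in at least one list. There too, nearly every gene with a KO peak had a WT peak, so this overlap is not a result about these genes. The WT list is the longer one, and the comparison of peak numbers that follows was not made over all genes. The number of peaks was equal in the lists for 22 genes, higher in WT for 18 and higher in KO for 2, Tpm1 and Trdn. The 5 genes with a peak in WT alone were Acta1, Lmod2, Myom3, Ckm and Ryr1, each with a single peak that was WT specific. Of 109 WT peaks at the genes, 28 were WT specific (25.7%, interval 18.4 to 34.6), against 25.6% of the WT peaks at all protein-coding genes, which is not a result about these genes. Of 87 KO peaks, 5 were KO specific (5.75%, interval 2.48 to 12.8), against 7.95% at all protein-coding genes. At least 1 WT specific peak was present at 20 of the 42 genes with a WT peak (47.6%, interval 33.4 to 62.3), against 39.1% of all protein-coding genes with a WT peak. That 39.1% lies inside the interval, and gene length was not matched. A KO specific peak was present at 4 of the 37 genes with a KO peak, against 12.3% of all protein-coding genes with one.

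**Figure D2:**
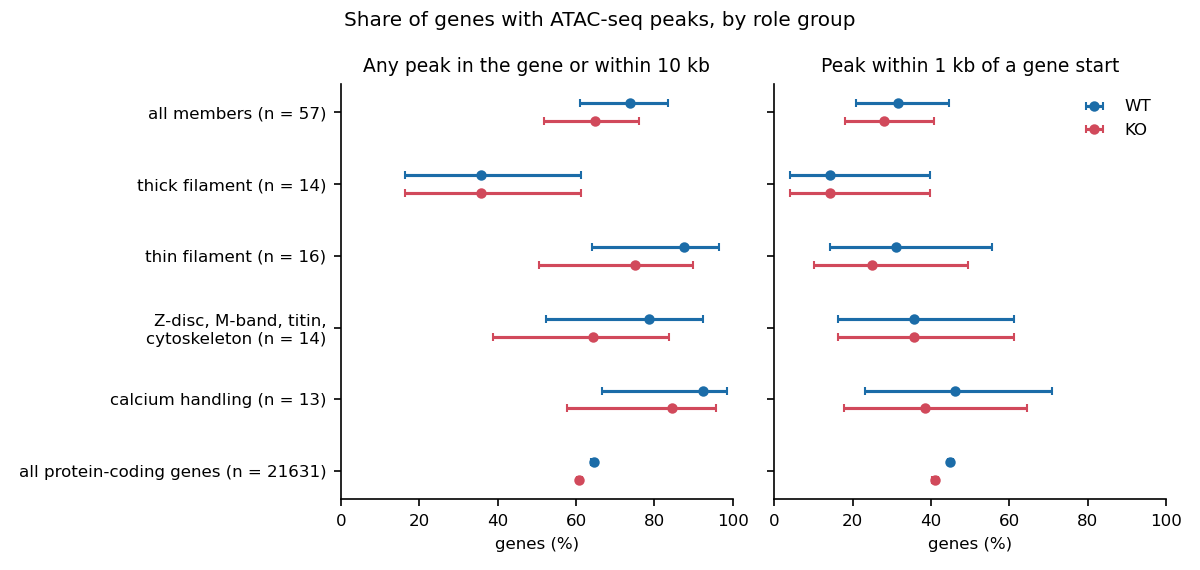
Share of genes, in percent, with a peak in the gene or within 10 kb (left) and within 1 kb of a gene start (right), for all 57 genes, the 4 role groups and all protein-coding genes, with points for WT (blue) and KO (red) and bars for 95% Wilson intervals. Thick filament genes sit lowest in each panel, at 35.7% with any WT peak and 14.3% with a WT start peak.

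The thick filament genes were the poorest in peaks. Of the 14, 5 had a peak in the WT list and the same number in the KO list (35.7%, interval 16.3 to 61.2), and 2 had a start peak in each. Over all protein-coding genes the shares were 64.6% and 60.8% with any peak, and 45.0% and 41.0% with a start peak. The genes without any peak were the myosin heavy chains Myh1, Myh2, Myh4, Myh7 and Myh8, the light chains Myl1, Myl2 and Myl3, and Mybph, myosin-binding protein H. Of the 5 heavy chain genes that lie side by side on chr11 (Myh3, Myh2, Myh1, Myh4 and Myh8), only Myh3, which encodes embryonic myosin, had a peak. That peak lay 1.33 kb upstream of the start (chr11:67076821-67077056) and had a fold over background of 10.1 in WT and 6.58 in KO. For the adult fast heavy chain Myh1 the nearest peak of either list was 123 kb away. Myh1, Myh2, Myh4 and Myh8 lay in the same stretch between retained peaks, of 280964 bp in WT and 438451 bp in KO. The interval for this group counts them as separate genes.

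The start peaks of this group lay at Mylpf and Myl4, and in each case a second gene starts within 1 kb of the peak. Mylpf, the fast regulatory light chain, had a start peak of strength 61.9 in WT and 61.8 in KO (chr7:127208771-127209384), which also lies at the start of Tbc1d10b. It was counted from the start of the gene body and lies 2.53 kb from the only start of Mylpf in the promoter table, whose window has no peak. Myl4, the embryonic and atrial essential light chain, had a start peak of 23.6 in WT and 18.3 in KO (chr11:104550066-104550879), shared with Cdc27. Neither of these peaks can be credited to the muscle gene from position alone. Myl4 also had the sole specific peak of the group, a WT peak of strength 12.0 (chr11:104596463-104596855) that lay 9.44 kb from the gene. Mybpc1 and Mybpc2, slow and fast myosin-binding protein C, each had 1 shared flank peak, with strengths of 12.9 in WT and 9.23 in KO for Mybpc1. At Mybpc2 they were 40.0 and 39.9, and that peak lies at the starts of Emc10 and Fam71e1.

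Thin filament genes were mostly marked, with 14 of 16 having a WT peak and 12 a KO peak. The exceptions in both lists were Actc1, cardiac alpha-actin, and Tnnt3, fast troponin T. The 3 tropomyosin genes, whose products lie along actin and are also made in non-muscle cells, had a start peak in both lists. At Tpm3 it was the strongest peak of the whole set, with a strength of 78.6 in WT and 59.5 in KO (chr3:90079346-90079871). That peak covered the inner start printed above and not the outer one, so a peak was present at one listed promoter of the gene and absent from the other. The Tpm1 start peak had a strength of 22.1 in WT and 21.4 in KO (chr9:67049072-67049631), and that of Tpm2 had 23.3 in WT and 7.70 in KO (chr4:43523220-43523710). Tpm1 and Tpm2 had 2 further shared WT peaks each inside the gene.

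At Lmod2 and Acta1 the sole peak in reach was WT specific. Lmod2, a leiomodin that nucleates actin filaments, had 1 WT specific peak of strength 8.64 over its start (chr6:24597561-24597839) and no KO peak in reach. In the KO list 4 call numbers are missing between the retained peaks on either side of it, so calls removed before deposit could have lain there. Lmod3, its relative in skeletal muscle, had a peak at a gene end with a strength of 7.99 in WT and 6.61 in KO, and a WT specific peak of 4.30 inside the gene (chr6:97240134-97240394). Acta1, skeletal alpha-actin, had no peak at its start, and its sole peak was a WT specific one of strength 15.8 in the flank beyond its far end (chr8:123884831-123885019), 9.85 kb from the start.

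Among the troponin and nebulin genes the start was not marked in either list. Tnnt2, troponin T of the heart and of developing muscle, had shared peaks inside the gene of strength 19.2 in WT and 26.8 in KO, and at its far end of 14.0 and 10.6. A WT specific peak of 8.82 lay 10.4 kb past its start (chr1:135847225-135847575). Tnnt1, slow troponin T, had a WT specific peak of 9.83 inside the gene, 1.47 kb from its start (chr7:4514387-4514624). Its shared peak lay in the flank, at the start of Ppp1r12c. The peaks of Tnni2, fast troponin I, lay in the flank and at the start of Syt8, where the WT specific peak had a strength of 8.74 (chr7:142435448-142435796). Neb, which encodes the thin filament ruler nebulin, had 2 shared peaks inside the gene, the stronger at 47.7 in WT and 40.3 in KO. Its cardiac relative Nebl had a WT specific peak of 8.11 inside the gene (chr2:17712698-17712881). The peaks of the troponin C genes were all flank peaks, and that of Tnnc2 with strengths of 51.2 in WT and 34.6 in KO lies at the start of Ube2c. The other Tnnc2 peak lies at the start of Snx21, and a Tnnc1 peak lies at that of Sema3g.

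At the Z-disc, M-band and cytoskeleton genes, 11 of 14 had a WT peak and 9 a KO peak, beside 64.6% and 60.8% of all protein-coding genes. WT specific peaks made up 10 of 31 WT peaks (32.3%), beside 25.6% at all protein-coding genes. Actn2, the alpha-actinin of the Z-disc, Tcap, which caps titin, and Myot, myotilin, which binds alpha-actinin, had no peak. Des, the intermediate filament desmin, had a start peak with a strength of 21.6 in WT and 22.0 in KO (chr1:75360182-75360782). Ttn, the giant spring protein titin, had a weak peak 0.637 kb from its start, of 5.51 in WT and 5.19 in KO (chr2:76981830-76981990), and no other peak in reach. These start peaks of Des and Ttn were present in each genotype.

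Ldb3, a PDZ and LIM protein of the Z-disc, had 7 WT peaks and 4 KO peaks. Its start peak had a strength of 39.7 in WT and 35.7 in KO (chr14:34588418-34588985). The 3 WT specific peaks, the most at any of the 57 genes, lay inside the gene with strengths of 25.9 (chr14:34564725-34564941), 10.8 (chr14:34582546-34583056) and 8.72 (chr14:34554172-34554714). The first of them was the strongest specific peak of the set, stronger than 71.2% of the WT list, and the remaining 4 WT peaks of the gene all had a KO partner. In the KO list 2 call numbers are missing beside each of the 3.

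Of the myomesins, which cross-link myosin at the M-band, Myom1 and Myom2 held strong shared peaks inside the gene together with weaker specific ones. Myom1 had 6 WT peaks and 6 KO peaks, of which the strongest, 40.0 kb from a start, had 75.9 in WT and 59.4 in KO (chr17:71059197-71059936). One peak of each list was specific at Myom1, a WT peak of 14.0 (chr17:71040440-71040780) and a KO peak of 7.31 (chr17:71012503-71012645). Its start peak, of 28.0 in WT and 29.3 in KO (chr17:71002183-71002973), also lies at the start of Myl12a. It was counted from the start of the gene body and lies 17.0 kb from the only Myom1 start in the promoter table, whose window has no peak. The strongest Myom2 peak had 61.5 in WT and 63.1 in KO (chr8:15072540-15073254), the highest strength at the 57 genes in the KO list. Myom2 also had 2 WT specific peaks inside the gene, of 14.6 (chr8:15060054-15060237) and 11.6 (chr8:15083200-15083441). Myom3 had no shared peak and a single WT specific peak of 5.22 inside the gene (chr4:135772740-135772996), beside which no KO call number is missing.

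The remaining genes of this group had their specific peaks outside the gene or at a shared start. Actn3, the alpha-actinin of fast fibres, had a shared peak at a gene end, with strengths of 29.1 in WT and 41.1 in KO (chr19:4878327-4878804), and 2 WT specific peaks. One of these, of 12.6 (chr19:4877775-4878119), lay next to that shared peak, and both lie at the start of Zdhhc24. The other, of 9.56 (chr19:4859221-4859435), lay in the flank, inside Ctsf. Ckm, muscle creatine kinase, had no start peak and a WT specific flank peak of 6.09 (chr7:19405514-19405662). The calsarcins Myoz1, Myoz2 and Myoz3, which link calcineurin to the Z-disc, had shared peaks only.

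Calcium-handling genes were the group with the most peaks. Of the 13 genes, 12 had a WT peak and 11 a KO peak, beside 64.6% and 60.8% of all protein-coding genes. A start peak was present at 6 in WT (46.2%) and 5 in KO (38.5%), beside 45.0% and 41.0%. The exception in both lists was Atp2a1, the calcium ATPase of fast fibres. The group held 42 of the 109 WT peaks, with 10 WT specific, and 36 of the 87 KO peaks, with 4 of the 5 KO specific ones. Its genes were also the longest, with a median length of 61.8 kb beside 23.6 kb for the 57 genes, and it had 18.7 WT peaks per Mb beside 21.7.

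**Figure D3:**
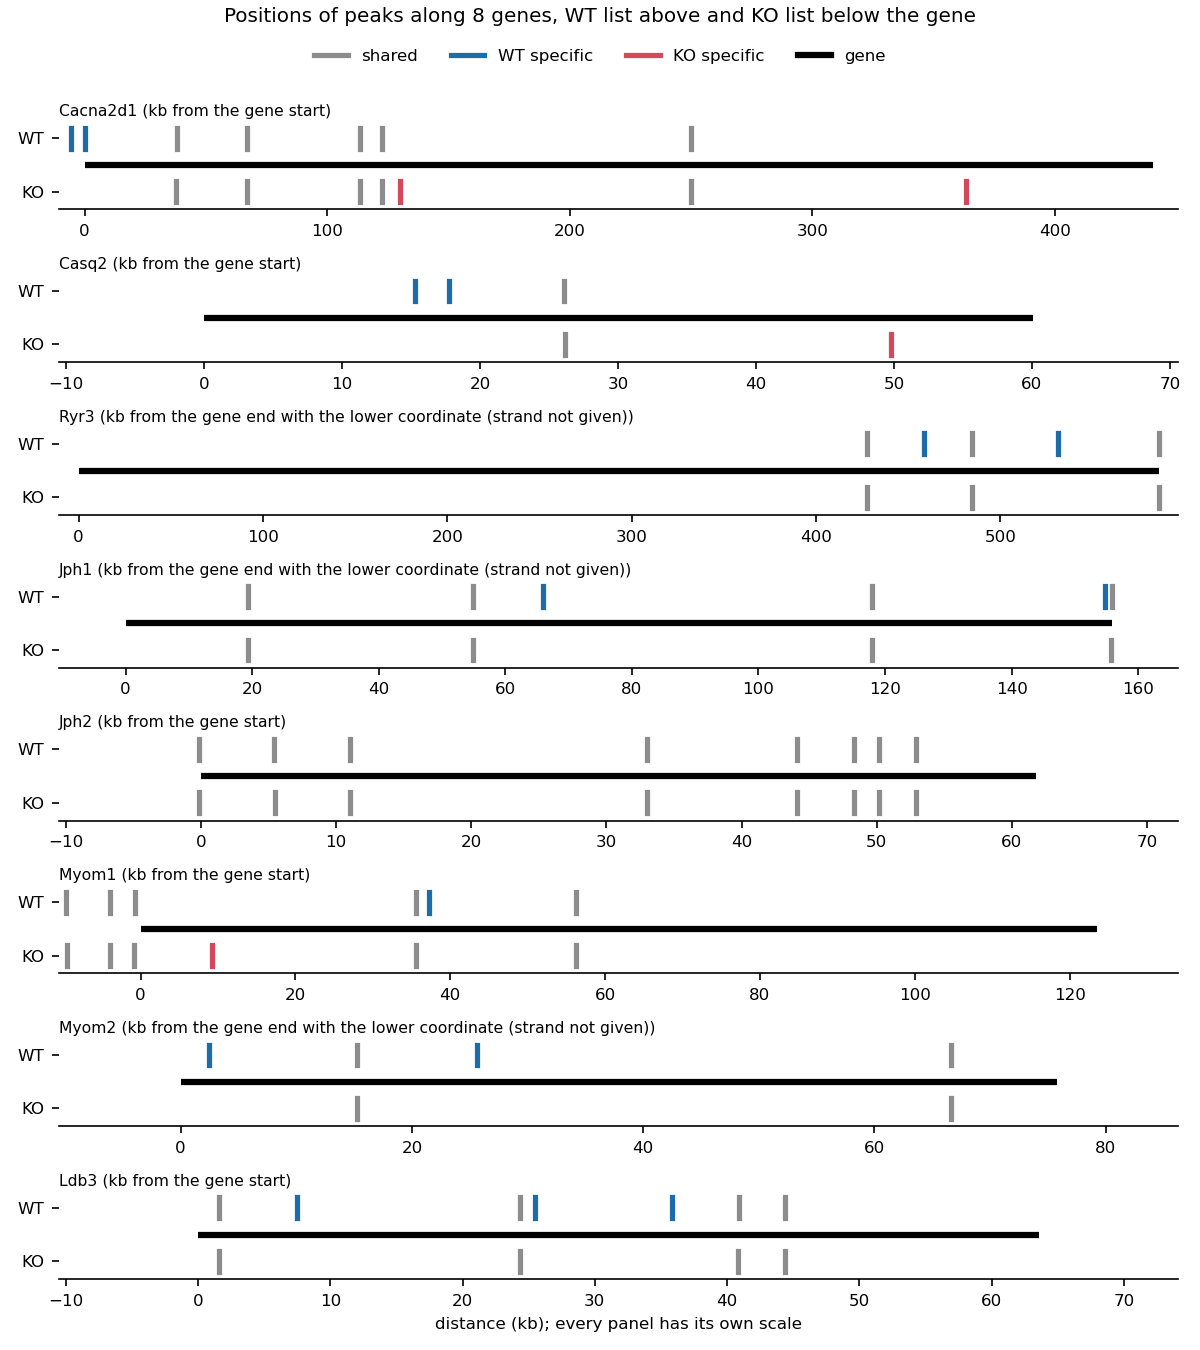
Positions of peaks along 8 genes, as distance in kb from the gene start (or from the end with the lower coordinate where no strand is given), with WT peaks drawn above and KO peaks below the black bar of the gene. Grey ticks are shared peaks, blue ticks WT specific and red ticks KO specific. Cacna2d1 has blue ticks at and before its start and red ticks far inside the gene, and Jph2 has grey ticks only.

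Cacna2d1, an auxiliary subunit of the voltage-gated calcium channel, had 7 peaks in each list, of which 5 were shared. The 2 WT specific peaks lay at the start, with a strength of 11.5 (chr5:15934268-15934565), and 5.59 kb from it, with 15.9 (chr5:15928560-15928786). The 2 KO specific peaks lay 130 kb (chr5:16064117-16064266) and 363 kb (chr5:16297298-16297675) from the start and had strengths of 3.18 and 2.28. The WT specific peaks therefore sat at the promoter side and the KO specific peaks deep in the gene, where the KO ones were stronger than 0.951% and 0.217% of their list. With Lmod2, it was one of 2 genes with a start peak in the WT list alone.

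The pore-forming subunit Cacna1s had 3 shared peaks in WT and in KO, none at its start. Cacnb1, the beta subunit that brings the channel to the membrane, had a WT specific flank peak of 12.5 (chr11:98026608-98026991), which lies at the start of Rpl19. Stac3, an adaptor of the channel and the ryanodine receptor, had 1 shared flank peak, of 19.3 in WT and 23.1 in KO, inside Ndufa4l2.

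The ryanodine receptor genes differed in peak number and also in length, at 121840 bp for Ryr1 and 586052 bp for Ryr3. Ryr1, the release channel of skeletal muscle, had no start peak and 1 WT specific peak of strength 5.63, 99.4 kb inside the gene (chr7:29025688-29025839). Ryr3, the form of developing and diaphragm muscle, had 5 WT peaks and 3 KO peaks. Its peak at a gene end had 29.3 in WT and 17.3 in KO (chr2:113217113-113217459). The WT specific peaks of Ryr3 had strengths of 18.2 (chr2:113089966-113090552) and 15.9 (chr2:113162677-113163013). No KO call number is missing beside the first of them, so no removed KO call lay between its retained neighbours there, and 2 are missing beside the other.

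Junctophilins tether the reticulum to the surface membrane, and one of them, Jph2, had the most peaks of the sarcomere and calcium genes in each list. Jph2 had 8 peaks in each list, all shared, with strengths from 6.32 to 37.4 in WT and from 5.43 to 31.5 in KO. Its start peak had 15.9 in WT and 9.74 in KO (chr2:163397898-163398534). Jph1 had 6 WT peaks, of which 2 were specific, and 4 KO peaks. Its peak at a gene end had 30.2 in WT and 33.8 in KO (chr1:17097663-17098135), and the strongest one inside the gene had 48.4 and 41.7. The WT specific peaks of Jph1 were among the weaker ones, at 9.49 (chr1:17096750-17096928) and 5.13 (chr1:17007893-17008072), and no KO call number is missing beside the first.

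The reticulum proteins that store and pump calcium showed both classes. Casq2, the calsequestrin of heart and slow fibres, had 2 WT specific peaks inside the gene, of 22.1 (chr3:102101587-102101782) and 13.1 (chr3:102103852-102104464), and 1 KO specific peak of 4.17. Casq1, its counterpart in fast fibres, had 3 shared peaks, with a start peak of 11.6 in WT and 16.5 in KO (chr1:172220532-172220786). Trdn, triadin, which binds calsequestrin to the release channel, had a shared peak of 14.2 in WT and 22.7 in KO and a KO specific peak of 4.15 (chr10:33196058-33196235). Atp2a2, the calcium ATPase of slow and cardiac muscle and of most other cells, had a peak at a gene end of 12.8 in WT and 11.1 in KO (chr5:122502095-122502822). A shared flank peak of Atp2a2, 5.69 kb from the nearest gene end, had 56.6 in WT and 14.0 in KO (chr5:122447482-122448167).

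Most peaks lay inside the genes. Of the 109 WT peaks 58 (53.2%) were inside the gene away from its ends, 13 at the gene start, 6 at a gene end where no strand is given, 1 at the far end and 31 (28.4%) in the flank. Of the 31 flank peaks, 9 lay within 1 kb of the start of another gene, and 12 of the 42 genes had flank peaks only. A peak inside the gene or at its start was present at 30 of 57 genes in WT and 25 in KO. For peaks in the gene body alone the share was 47.4% in WT, beside 43.1% of all protein-coding genes, and 40.4% in KO, beside 39.3%. The other position counts have no share over all protein-coding genes beside them and do not set these genes apart. Of the 28 WT specific peaks, 18 were inside genes, 7 in flanks and 3 at a gene start or end (Lmod2, Cacna2d1 and Actn3). The specific share was 31.0% of the WT peaks inside genes, 22.6% of those in flanks and 15.4% of those at a gene start of known strand, and these shares were not tested. All 5 KO specific peaks were inside genes.

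The limit of 10 kb decided a few assignments. Peaks just inside it were at Myom1 (9.61 kb from the gene, strength 32.5 in WT) and Myl4 (9.44 kb). A strong shared peak beside Tnnt2, of 56.1 in WT and 53.3 in KO, lay just outside at 10.1 kb in WT. At Tpm1 the WT peak of a shared pair was outside at 10030 bp (26.7) and its KO partner inside at 9903 bp (6.99), so Tpm1 had 4 KO peaks and 3 WT peaks without a KO specific peak.

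By the median, specific peaks were weaker than shared ones, at these genes and in each list as a whole. In the WT list the 28 specific peaks had a median strength of 11.1 and the 81 shared ones 18.4, beside 8.38 and 21.1 for all WT specific and all shared WT peaks. In the KO list the 5 specific peaks had a median of 4.15 and the 82 shared ones 16.3, beside 8.38 and 19.1. The strength of specific WT peaks ran from 4.30 to 25.9, and 25 of the 28 were below the median of the WT list, 16.1. When the WT list was cut by strength into 4 classes of nearly equal size, the strongest class held 19 peaks of these genes and 0 specific ones, beside 1.17% specific among all its peaks. In the weakest class 10 of 22 were specific (45.5%), beside 62.5% of all. Call numbers have gaps, and for 24 of the 28 WT specific peaks a KO number is missing between the retained KO peaks on either side (85.7%), beside 87.1% of all WT specific peaks. The same held, with WT numbers, for 5 of 5 KO specific peaks, beside 87.4% of all of them. How far removed calls account for these classes was not tested.

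**Figure D4:**
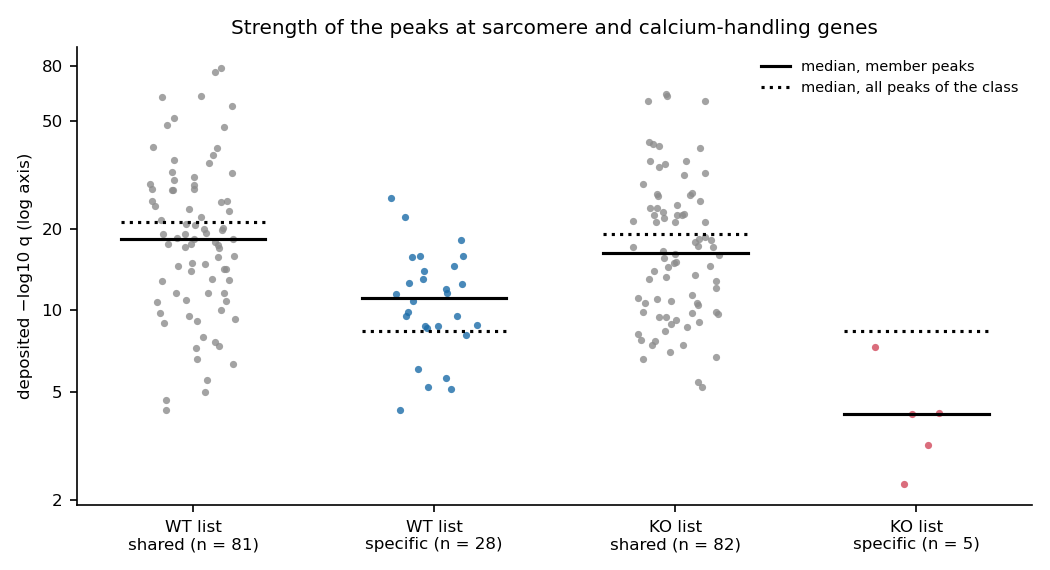
Deposited −log10 q (log axis) of each peak at the 57 genes, by list and class, with solid lines for the median of these peaks and dotted lines for the median of all peaks of that class. Specific peaks lie low in each list, and the 5 KO specific peaks all lie below 8.38, the median of their class.

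The 15 genes with no peak in either list were Myl1, Myl2, Myl3, Mybph, Myh1, Myh2, Myh4, Myh7, Myh8, Actc1, Tnnt3, Tcap, Actn2, Myot and Atp2a1. They made up 26.3% of the 57 genes, beside 34.2% of all protein-coding genes. The nearest WT peak was 11.3 kb away at Actn2, 11.9 kb at Myl3 and 12.2 kb at Atp2a1. At Actn2 no call number is missing in either list between the retained peaks on both sides. For Myl3 none is missing in WT, and for Atp2a1 and Myot none in KO, so at these genes and lists no call was removed there. At the other genes a weak call may have been made and removed.

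The promoter windows of the genes held fewer CpG dinucleotides than promoters at large, at a near-equal GC content. The RefSeq table held 53 windows for 42 of the 57 genes, some of which overlap within a gene, and 21045 windows for all protein-coding genes. The median number of CpG dinucleotides per 300-base window was 6, beside 13 for all, and the median GC content was 58.0%, beside 56.7%. A WT peak overlapped 11 of the 53 windows (20.8%), beside 40.3% of all windows, and a KO peak 9 (17.0%), beside 36.9%. Windows with 9 or fewer CpG made up 42 of the 53. Among windows with 15 or more CpG, 5 of 8 lay under a WT peak (62.5%), beside 68.2% of all such windows. Among those with 10 to 14 it was 1 of 3, beside 47.1%. Among those with 5 to 9, 5 of 24 did (20.8%), beside 16.4%, and among those with 4 or fewer, 0 of 18 did, beside 3.24%. These classes held few windows of the genes, as few as 3, and whether CpG content bears on the share of start peaks was not tested.

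**Figure D5:**
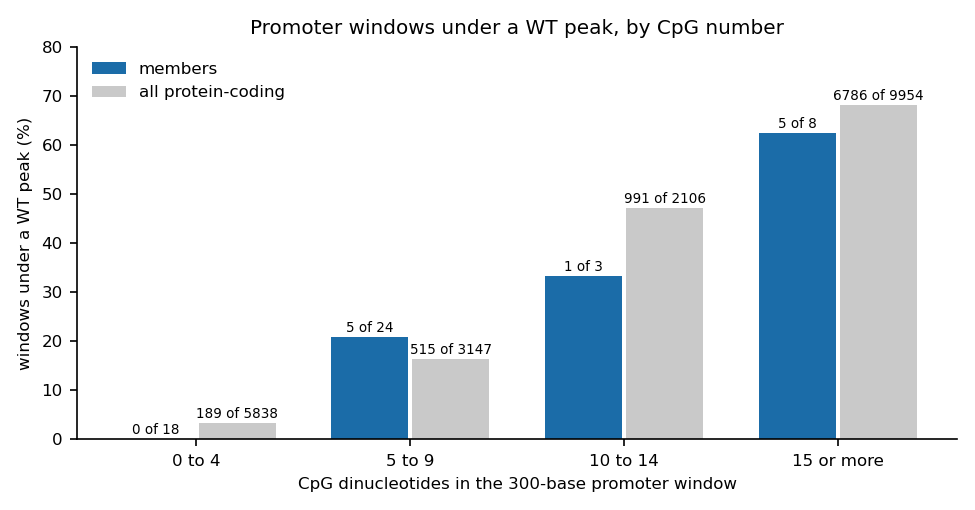
Share of 300-base promoter windows, in percent, that overlap a WT peak, by the number of CpG dinucleotides in the window, for the 57 genes (blue) and all protein-coding genes (grey), with the numbers of windows above the bars. The share climbs with CpG number in each set, from 0 of 18 to 5 of 8 at these genes.

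The windows under a WT peak covered a wide range of CpG content. Those of Lmod2, Jph2 and Ldb3 held from 6 to 8 CpG and that of Des 11, while those of Myl4, Tpm1, Tpm2, the inner start of Tpm3 and Cacna2d1 held from 15 to 42. Of the 2 start peaks seen in WT alone, one was at a window with 8 CpG and the other at the window with 42, the highest number among the 53. The E-box form CAGCTG, a case of CANNTG, was present in 41.5% of the windows, beside 15.7% of all, and CANNTG itself in 83.0%, beside 69.0%. The RUNX motif TGTGGT was in 26.4%, beside 14.7%, and its form TGCGGT in 7.55%, beside 7.45%. Of the 11 windows under a WT peak 1 held TGTGGT (9.09%), beside 11.8% of all windows under a WT peak. Of the 42 windows under no WT peak 13 held it (31.0%), beside 16.8% of all such windows. The CArG box was in 8 windows (15.1%), beside 1.54%, and the MEF2 motif in 3.77%, beside 0.494%. The TEAD motif GGAATG was in 26.4%, beside 13.5%, TATAAA in 20.8%, beside 12.7%, and TGANTCA in 9.43%, beside 7.04%. The ETS motif CCGGAA was less frequent, in 3.77%, beside 18.9%. All were counted on both strands, and none of these shares was tested. Overlapping windows of a gene, such as those of Ldb3, Jph2 and Tnni1, were counted separately, so the same match can count more than once.

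Other genes of the same machinery, listed separately, were counted in the same way. A further list of 52 sarcomere and calcium genes, among them regulators such as Smyd1 and reticulum proteins such as Sln, had a WT peak at 44 genes and a KO peak at 38. A start peak was present at 22 of them in WT and 18 in KO, which is 42.3% and 34.6%. Of its 114 WT peaks 22 were WT specific (19.3%, interval 13.1 to 27.5), and of its 99 KO peaks 8 were KO specific (8.08%). The 44 collagen genes, taken as structural genes outside the sarcomere, had a start peak at 7 genes in WT (15.9%) and 8 in KO (18.2%). A low start share is therefore not particular to the sarcomere and calcium genes. The collagen genes had 49 WT specific among 137 WT peaks (35.8%, interval 28.2 to 44.1) and 16 KO specific among 104 KO peaks (15.4%). The interval of the sarcomere and calcium genes, 18.4 to 34.6 in WT, overlapped each of these, and the differences were not tested.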

How the data were processed

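Per the labels' protocols, nuclei were tagmented with Tn5, and C2C12 cells were grown in triplicate. The 5 deposited lists are narrowPeak-like and have no header: WT, KO, shared, WT specific and KO specific. The authors gave each peak a fold (a ratio over background), a −log10 q and, per the layout of the deposited lists, a summit offset and in the specific lists an unlabelled further mark. The build is mm10, per the submitters' processing notes; aligner, caller, filters and the removal of calls are not given in the sources used here. Peak names carry replicate 1, so replicates 2 and 3 have no values. Depth is unknown.

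Peaks were placed by their centre on genes of a RefSeq table of GRCm38.p6, with 10 kb flanks; a start peak lies within 1 kb of a listed start. Y-linked genes were left out. Strand came from the RefSeq promoter table where it had the gene, and its starts counted together with the start of the gene body; otherwise either gene end counted. Partners overlap by at least 1 bp. Shares have 95% Wilson intervals. No test was run, since each genotype has 1 peak call. The members, gene lists and markers were chosen with earlier results of these data known. Named were all genes with a specific or start peak, those with the most peaks or the highest 5 strengths per list, and once those without a peak. Python 3.11.15, numpy 2.4.6, pandas 2.3.3, scipy 1.17.1 and matplotlib 3.10.9 were used, and the functions were tested on simulated data. Alternatives in distance, placement, assignment, strength and overlap were computed.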

Additional observations from a re-analysis of the deposited data

Results flagged for a closer look

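An unlabelled mark in the WT specific list, outside the comparisons above, was present on 4 of the 28 WT specific peaks at the sarcomere and calcium genes (14.3%, interval 5.70 to 31.5), at Acta1, Myl4, Myom1 and Ryr1. The flag used a fixed floor of 3 counts, which is 10.7% of 28 and not a Wilson interval. Among all WT specific peaks 993 of 9318 (10.7%) carried the mark. That share lies inside the interval of 5.70 to 31.5, so the count of 4 is not a result about these genes. The KO specific list had it on 0 of 5 such peaks. No label or header names this mark.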

How the results depend on the processing

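Of 56 alternative values, 42 moved by less than the counting interval and 14 by more. With the gene body alone, 47.4% of the genes had a WT peak and 40.4% a KO peak, beside 43.1% and 39.3% of all protein-coding genes. With 50 kb flanks these were 91.2% and 87.7%, beside 77.8% and 76.1%. With peaks given to the nearest gene only, they were 59.6% and 50.9%, beside 58.6% and 54.3%. The share of genes with a WT specific peak, among those with a WT peak, was 69.2% with 50 kb flanks, beside 60.4%. When peaks below the list median −log10 q were dropped, 49.1% of the genes had a WT peak and 43.9% a KO peak, beside 49.9% and 44.5%. A WT start peak was left at 19.3% and a KO start peak at 15.8%, beside 30.9% and 26.6%. Of WT peaks 5.88% were WT specific, beside 5.67%, and of KO peaks 0% were KO specific, beside 1.12%. Of the genes with a WT peak 10.7% had a specific one, beside 8.05%. In all 8 settings of each list the share with a start peak was below that of all protein-coding genes. The share with any peak was above it except in 1 of 7 settings in WT and 2 of 7 in KO. The settings limited to genes with a strand and to promoter table starts were chosen after seeing the data. No paired analysis was possible because each list comes from 1 peak call per genotype and has no replicate columns, and for the same reason no replicate could be left out. Depth is unknown, so whether a peak absent from a list is absent from the cells could not be decided.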
